A study of Mus musculus with 18 samples.

Results

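Fibroblast growth factors of the limb bud and their receptors were examined as a set of 9 genes: the ligands Fgf10, Fgf8, Fgf4, Fgf9 and Fgf17 and the receptors Fgfr1, Fgfr2, Fgfr3 and Fgfr4. Binding sites of Pitx1 in hindlimb buds at e11.5 and of Tbx5 in forelimb buds at e10.5 were given to these genes where the nearest protein-coding gene within 100 kb was one of the 9. This gave 59 of 54941 Pitx1 sites and 10 of 10273 Tbx5 sites, at 9 of 21887 protein-coding genes. The sites were mapped by chromatin immunoprecipitation and sequencing (ChIP-seq) in whole buds from CD1 embryos (outbred mice, genotype wild type), with 1 sample and a homemade antibody for each factor. Each site is the highest point of a peak, called a summit, on build mm10, and its score is the authors' value, read here as the −log10 of a q-value.

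Limb outgrowth depends on a loop of fibroblast growth factor signals between mesenchyme and the apical ectodermal ridge, the thickened edge of the bud. Fgf10 from the mesenchyme acts through Fgfr2 in the ectoderm and induces the ridge, and Fgf8, Fgf4, Fgf9 and Fgf17 from the ridge signal back to the mesenchyme, largely through Fgfr1 and Fgfr2. Tbx5, a T-box factor of the forelimb mesenchyme, is known to be needed for Fgf10 expression in the forelimb field, and Pitx1 is a homeodomain factor of the hindlimb mesenchyme. The study asked how forelimb and hindlimb gene networks differ. A bud holds several cell types, so few cells with strong binding and many with weak binding cannot be told apart. The lists hold positions and scores and no expression levels, so the tissue labels could not be checked against marker genes.

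Pitx1 summits were assigned to 6 of the 9 genes and Tbx5 summits to 4 of them. Of all 21887 genes, 54.5% had a Pitx1 summit and 18.7% a Tbx5 summit. Fgfr2 held 26 Pitx1 and 4 Tbx5 summits, Fgf10 held 15 and 3, Fgfr1 held 7 and 1, and Fgf9 held 6 and 2. Fgf8 held 4 Pitx1 summits and Fgfr4 held 1, and neither had a Tbx5 summit. A summit of each factor was thus assigned to 4 of the 9 genes, against 16.8% of all genes. Fgf4, Fgf17 and Fgfr3 had no summit of either factor assigned, as was true of 43.6% of all genes. A list names only sites that passed the authors' threshold, so weaker binding at these genes cannot be seen. With 1 sample for each factor there is no replicate error, and limb, stage, factor and antibody differ together, so no test between the lists was made.

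**Figure D1:**
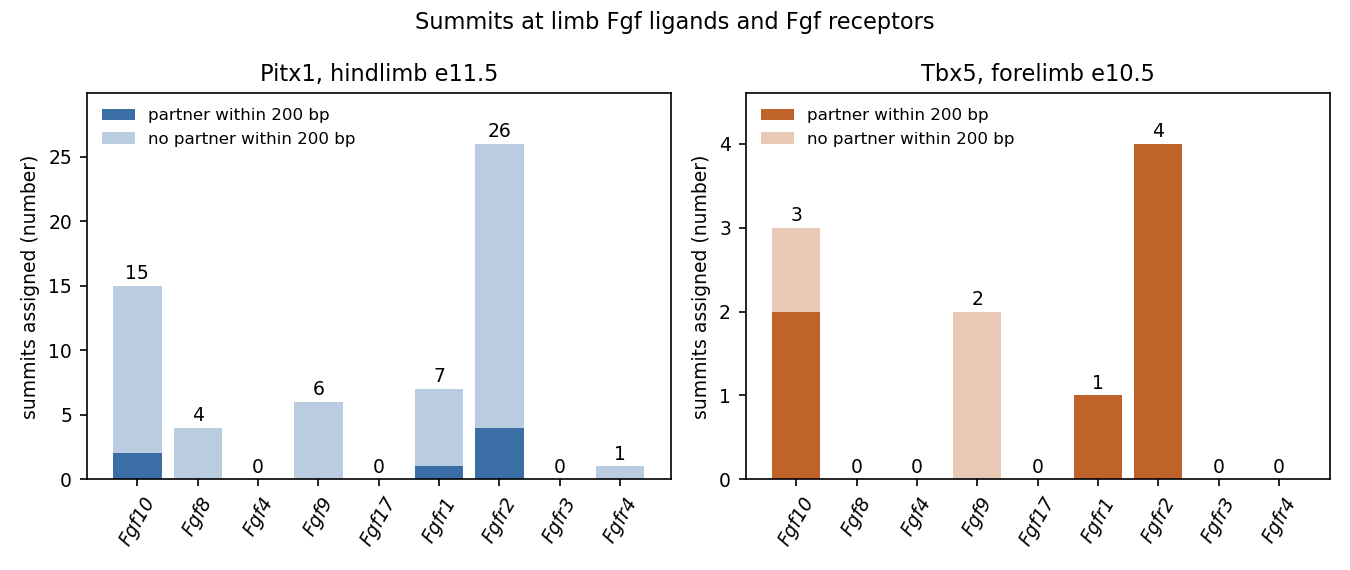
Number of summits assigned to each of the 9 genes, Pitx1 in the left panel and Tbx5 in the right, with the part that had a summit of the other factor within 200 bp in the darker shade. Fgfr2 and Fgf10 held the most summits in each panel, and all 4 Tbx5 summits of Fgfr2 and the 1 of Fgfr1 had a Pitx1 partner.

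Fgf10 lies on chromosome 13 from 118714699 to 118792573, on the + strand, with the nearest protein-coding genes 327 kb below (Mrps30) and 543 kb above (Nnt). Of its 15 Pitx1 summits, 7 lay inside the gene and 8 outside, and all 3 Tbx5 summits lay inside. Over the 9 genes, 31 of 59 Pitx1 summits and 7 of 10 Tbx5 summits were inside the gene, against 60.6% and 60.5% of all assigned summits. Scores of the Pitx1 summits were between 2.45 and 43.2 with a median of 9.54, and those of the Tbx5 summits were 3.60, 9.62 and 19.5. The strongest Pitx1 summit and the strongest Tbx5 summit were at different places, and at each of these places the other factor had a weaker summit.

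The first place lay 21.2 kb downstream of the start site. There the Pitx1 summit at position 118735902 scored 43.2, and 7.76% of the Pitx1 list scored higher. The Tbx5 summit at position 118735884, 18 bp away, scored 9.62, and 42.8% of the Tbx5 list scored higher. The second place lay 7.17 kb downstream of the start site. There the Pitx1 summit at position 118721865 scored 8.90, with 39.3% of the list above it, and the Tbx5 summit at position 118721913, 48 bp away, scored 19.5, with 23.7% above it. The lists differ in length, so these shares cannot be compared between the factors, and within each list the order of the 2 sites was opposite. The third Tbx5 summit of Fgf10, at position 118720880, scored 3.60 and lay 985 bp from the nearest Pitx1 summit.

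The other Pitx1 summits inside Fgf10 had no Tbx5 summit within 5 kb. The strongest of them, at position 118746614, scored 21.3 and lay 31.9 kb downstream of the start site. One at position 118792257, near the far end of the gene, scored 19.7. The remaining 3 inside the gene were weak: scores of 3.35 at 118714860, 2.45 at 118715782 and 2.89 at 118772006. Below the gene lay 3 summits, with scores of 12.9 at 118713684, 1.01 kb from the start site, 19.7 at 118669333, 45.4 kb away, and 9.54 at 118624877, 89.8 kb away. Above it lay 5 summits. A pair just past the gene end scored 12.2 at 118794621 and 2.89 at 118795152. Farther out, the summit at 118825151, 32.6 kb from the gene, scored 30.8 and was the second highest of the 15. The summits at 118820317 and 118850821, 27.7 and 58.2 kb from the gene, scored 7.07 and 4.32. Within the 100 kb limit, Pitx1 sites thus ran from 89.8 kb below the gene to 58.2 kb above it, and others lay beyond that limit. The Tbx5 sites, fewer and from a shorter list, spanned 15004 bp inside the gene.

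**Figure D2:**
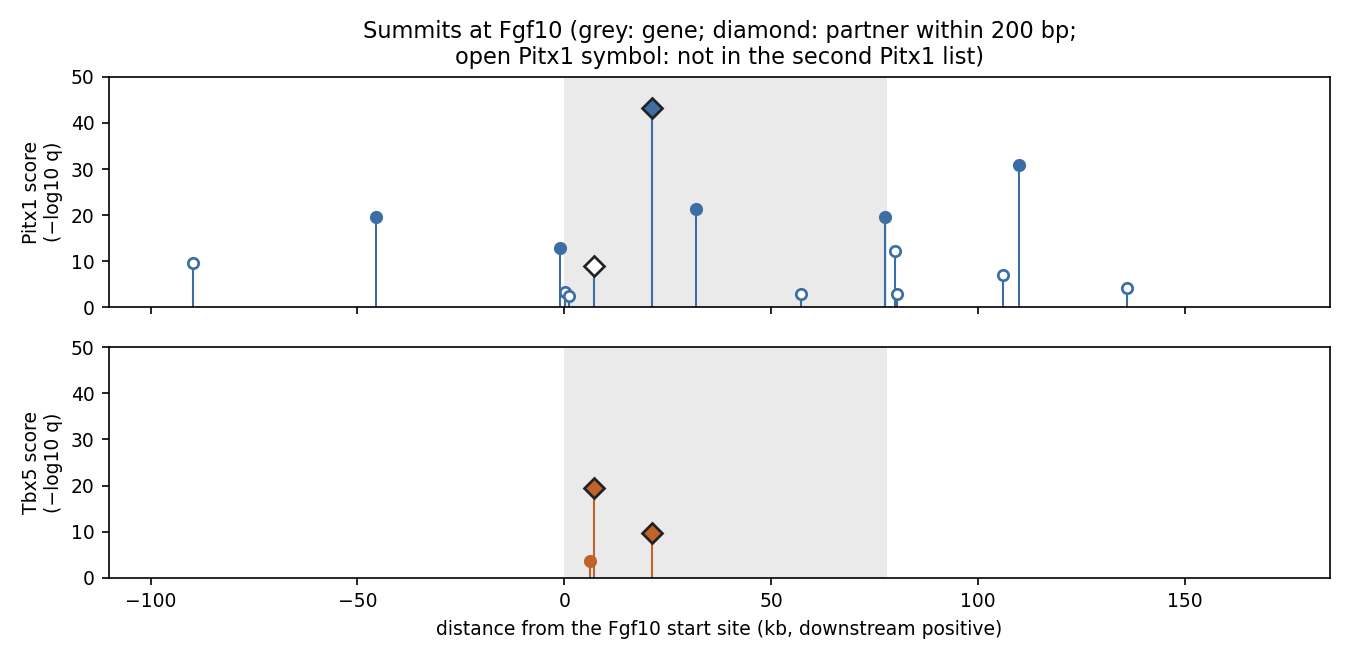
Score (−log10 q) of every Pitx1 summit (upper panel) and Tbx5 summit (lower panel) assigned to Fgf10, against distance from its start site in kb, with the gene in grey, diamonds for summits with a partner within 200 bp and open Pitx1 symbols for those absent from the second Pitx1 list. The 3 Tbx5 summits sit between 6.18 and 21.2 kb downstream of the start site, and the 15 Pitx1 summits spread over both flanks.

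The start sites of Fgf10 and Fgf9 each had a weak Pitx1 summit close by, so their promoters are shown here with that of Fgfr3, a gene without summits. The sequences come from RefSeq on GRCm38.p6, the assembly mm10 represents, and run from 250 bases before to 50 after a start site on the strand of the gene. Capitals mark the T-box motif AGGTGT or the homeodomain motif TAATCC on either strand, which do not overlap each other in these windows. The windows are chr13:118714449-118714748 (+) for Fgf10, chr14:58072436-58072735 (+) for Fgf9 and chr5:33721474-33721773 (+) for Fgfr3.
Fgf10: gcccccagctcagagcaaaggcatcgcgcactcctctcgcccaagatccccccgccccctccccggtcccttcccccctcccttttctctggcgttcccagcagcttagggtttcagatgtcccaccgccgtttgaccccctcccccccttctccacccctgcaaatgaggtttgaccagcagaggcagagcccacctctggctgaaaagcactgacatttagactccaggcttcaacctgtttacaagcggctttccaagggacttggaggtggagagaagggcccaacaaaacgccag
Fgf9: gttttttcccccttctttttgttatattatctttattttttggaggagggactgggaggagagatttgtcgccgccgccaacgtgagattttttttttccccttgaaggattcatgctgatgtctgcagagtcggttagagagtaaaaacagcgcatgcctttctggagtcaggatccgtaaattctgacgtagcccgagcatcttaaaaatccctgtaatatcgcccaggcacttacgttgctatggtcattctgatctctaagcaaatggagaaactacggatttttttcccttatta
Fgfr3: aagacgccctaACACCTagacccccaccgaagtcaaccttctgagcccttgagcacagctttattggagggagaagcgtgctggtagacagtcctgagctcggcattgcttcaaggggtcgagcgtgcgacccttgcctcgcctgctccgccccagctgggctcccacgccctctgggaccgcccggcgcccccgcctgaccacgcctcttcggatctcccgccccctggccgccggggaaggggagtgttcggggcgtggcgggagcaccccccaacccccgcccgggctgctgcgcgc
Neither motif was found in the windows of Fgf10 and Fgf9, while the first of the 2 Fgfr3 windows held 1 T-box match, which begins 239 bases before the start site on the − strand. Windows were found for 6 of the 9 genes, 7 windows in all, and those of Fgf4, Fgfr2 and Fgfr4 and the other Fgfr3 window had neither motif. Of 32851 promoter windows, 13.7% held AGGTGT and 7.06% held TAATCC. No summit of either factor fell inside any of the 7 windows. The nearest were the Pitx1 summits 161 bp downstream of the Fgf10 start site, with a score of 3.35, and 125 bp downstream of the Fgf9 start site, with a score of 2.89. At Fgfr2 the nearest Pitx1 summit was 2.78 kb downstream of the start site, with a score of 28.1. The nearest Tbx5 summits lay 6.18 kb from the start site of Fgf10, 5.83 kb from that of Fgfr2 and 12.8 kb from that of Fgf9.

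The ridge ligands carried fewer sites than Fgf10, in shorter domains, and their highest scores were lower. Per 100 kb of domain, Fgf8 had more Pitx1 summits (8.54) than Fgf10 (5.40). Fgf9, which also signals from other epithelia, lies on chromosome 14 from 58070671 to 58112854. Its strongest Pitx1 summit scored 20.5 at position 58070492, 179 bp outside the gene and 2.19 kb before the annotated start site. Another scored 19.7 at position 58074460, 1.77 kb past that start site. Its other 4 Pitx1 summits scored between 2.89 and 6.49. The stronger Tbx5 summit of Fgf9 scored 12.4 at position 58152387, 39.5 kb outside the gene, and lay between a pair of Pitx1 summits 1.66 and 1.58 kb away that scored 6.49 each. The weaker one scored 4.13 at position 58085483, inside the gene and 11023 bp from any Pitx1 summit. No site of Fgf9 was shared within 200 bp.

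Fgf8, the main ridge signal, lies on chromosome 19 from 45736491 to 45742941. Its 4 Pitx1 summits all lay in the lower part of the list, with 54.4% or more of its scores above each. They scored 5.92 at positions 45717670 and 45725831, outside the gene, and 4.84 at 45737557 and 3.35 at 45740534, inside it. The nearest Tbx5 summit lay 19.7 kb from the first of them. Fgf4 (chromosome 7, 144861386 to 144865245) and Fgf17 (chromosome 14, 70636203 to 70642268), which act beside Fgf8 in the ridge, had none. Their assignment domains, the stretches of sequence that fall to a gene under the rule, are short because neighbours are close: 28.5 kb for Fgf4, which lies between Fgf3 and Fgf15, and 8.66 kb for Fgf17. Without the nearest-gene rule, 5 Pitx1 and 2 Tbx5 summits lay within 100 kb of Fgf4 and 7 and 0 within 100 kb of Fgf17. For Fgf8 this count was 14 and 2, of which 6 Pitx1 summits and 1 Tbx5 summit fell to Fbxw4. The introns of this neighbouring gene are known to hold limb enhancers of Fgf8. Fbxw4 ends 76.0 kb from Fgf8. The Tbx5 summit, 38.5 kb from Fgf8 with a score of 13.9, thus lay between the genes, as did the Pitx1 summits 45.3 to 73.2 kb away. The highest of the 6 Pitx1 summits, 7.67, lay inside Fbxw4, 83.9 kb from Fgf8. More than 100 kb from Fgf8, Fbxw4 held another Tbx5 summit, which scored 31.9 and was shared.

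Among the receptors, Fgfr2 held the most sites and Fgfr1 the strongest. Fgfr2 lies on the − strand of chromosome 7 from 130162451 to 130266808, and 14 of its 26 Pitx1 summits lay inside the gene. Their scores ran from 2.03 to 101 with a median of 9.54. The highest, 101 at position 130182779, lay 84.0 kb downstream of the start site with no Tbx5 summit within 50 kb, and 2.21% of the Pitx1 list scored higher. Pitx1 summits at Fgfr2 were a median of 9.74 kb apart, with the widest gap 33.1 kb, so they were spread along the gene and its flanks.

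All 4 Tbx5 summits of Fgfr2 were shared. A pair of shared sites lay beyond the far end of the gene. At one of them the Pitx1 summit at position 130064274 scored 32.7 and the Tbx5 summit at 130064470, 196 bp away, scored 34.7. At the other the Pitx1 summit at 130074237 scored 29.9 and the Tbx5 summit 7 bp away scored 2.61, with 96.0% of its list above it. These sites are 98.2 and 88.2 kb outside Fgfr2, close to the 100 kb limit of assignment. The shared sites inside the gene had lower Pitx1 scores than this outer pair, and Tbx5 scores between those of the pair. At 130234105 the scores were 9.54 for Pitx1 and 5.23 for Tbx5. At 130260969, which lies 5.84 kb downstream of the start site, they were 5.92 and 5.23. Counting sites within 50 kb of a gene left Fgfr2 with 22 Pitx1 and 2 Tbx5 summits.

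**Figure D3:**
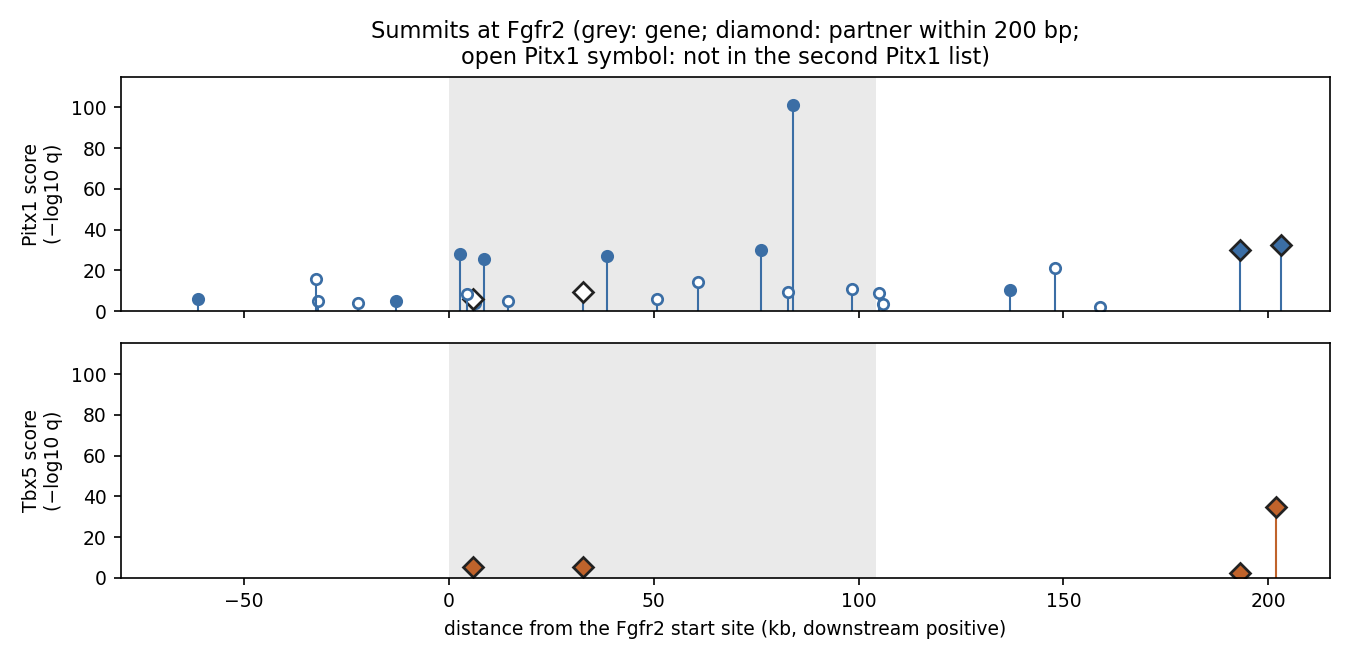
Score (−log10 q) of every Pitx1 summit (upper panel) and Tbx5 summit (lower panel) assigned to Fgfr2, against distance from its start site in kb, with symbols as in the map of Fgf10. The highest Pitx1 summit, at 101, has no Tbx5 summit near it, and the highest Tbx5 summit, at 34.7, lies 98.0 kb beyond the far end of the gene beside a Pitx1 summit of 32.7.

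Fgfr1, the receptor that carries ridge signals into the mesenchyme, lies on chromosome 8 from 25518759 to 25575718. It held the highest-scoring summit of each factor among the 9 genes. The Pitx1 summit at position 25544990 scored 160, rank 527 in its list, and the Tbx5 summit at position 25543652 scored 152, rank 181. They lay 1.34 kb apart inside the gene. The Tbx5 summit was shared with another Pitx1 summit 5 bp away, at position 25543647, which scored 34.5. The other 5 Pitx1 summits of Fgfr1 scored between 3.83 and 15.1, and 3 of them lay inside the gene.

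Fgfr4, best known for its part in the control of bile acid synthesis in the liver, lies on chromosome 13 from 55152818 to 55168759 and held 1 Pitx1 summit, 3.19 kb away at position 55171952. It scored 4.84, and the nearest Tbx5 summit was 218 kb from it. Fgfr3, which restrains bone growth in the later cartilage growth plate, lies on chromosome 5 from 33721724 to 33737068 and had no summit assigned. The nearest to its first start site were a Pitx1 summit 29.4 kb away with a score of 8.90 and a Tbx5 summit 26.4 kb away, and both fell to Tacc3.

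**Figure D4:**
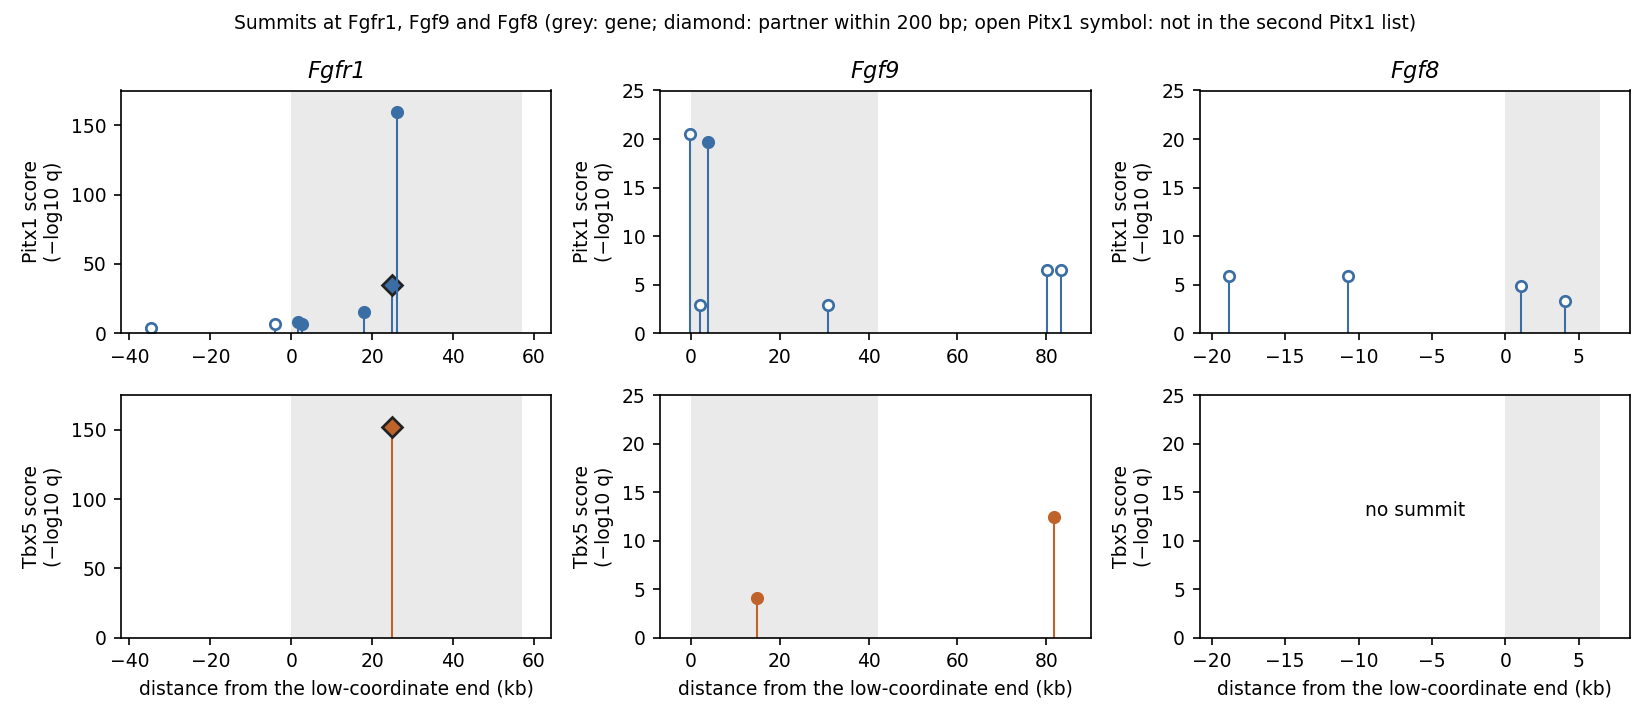
Score (−log10 q) of the Pitx1 summits (upper row) and Tbx5 summits (lower row) assigned to Fgfr1, Fgf9 and Fgf8, against distance in kb from the low-coordinate end of each gene, with symbols as in the map of Fgf10 and a wider score axis for Fgfr1. The summits of 160 for Pitx1 and 152 for Tbx5 lie 1.34 kb apart inside Fgfr1, while no summit of Fgf9 or Fgf8 exceeds 20.5.

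Sites of the pair of factors coincided at 3 of the 9 genes: Fgf10, Fgfr1 and Fgfr2. A shared Tbx5 summit was found at 8.8% of all genes. Of the 59 Pitx1 summits at the 9 genes, 7 or 11.9% (exact Clopper-Pearson 95% interval 4.91 to 22.9) had a Tbx5 partner, against 6.79% of all assigned Pitx1 summits. Of the 10 Tbx5 summits, 7 or 70.0% (34.7 to 93.3) had a Pitx1 partner, against 38.4% of all assigned Tbx5 summits, which lies inside that interval. The members of a pair were between 5 and 196 bp apart, with a median of 18 bp, against 60 bp over all 3041 assigned shared Tbx5 summits. These intervals reflect only how many summits were counted, and sites of 1 gene are not independent of each other.

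A second, shorter Pitx1 list of 17783 summits, all of them also in the longer list, kept 22 of the 59 Pitx1 summits, or 37.3% (25.04 to 50.9), against 30.9% of all assigned Pitx1 summits. It kept sites at 4 of the 9 genes: 10 of 26 at Fgfr2, 6 of 15 at Fgf10, 5 of 7 at Fgfr1 and 1 of 6 at Fgf9. Of all genes, 26.2% had a site in it. All 4 sites of Fgf8 and the 1 of Fgfr4 were absent. The second list mostly keeps high scores, and applying to each of the 59 summits the share kept among all Pitx1 summits of its score class, out of 10 classes, gave 21.2. The 22 kept in all were close to this number. Among single genes, Fgfr2 had 10 against 10.1, Fgf10 had 6 against 5.79 and Fgf8 had 0 against 0.523. Fgfr1 lay farther off, with 5 against 2.82, and Fgf9 had 1 against 1.88. The highest summit of Fgf9, with a score of 20.5, was among those not kept. Of the 7 shared sites, the second list kept 4, against 57.1% of all assigned shared Pitx1 summits: 1 at Fgf10, 1 at Fgfr1 and the outer pair at Fgfr2.

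Sites were denser around the 9 genes than over all genes. Their domains held 5.92 Pitx1 and 1.00 Tbx5 summits per 100 kb, against 2.35 and 0.415 over all protein-coding genes. The ratios were 2.52 for Pitx1 (1.92 to 3.25, from the exact interval on the share of summits) and 2.42 for Tbx5 (1.16 to 4.44). These intervals treat summits as independent, though 41 of the 59 Pitx1 summits lay at Fgf10 and Fgfr2, so they are no test of density. For Tbx5, the lower bound fell below 1 with a limit of 500 kb (0.964), with scores at or above the median (0.774) and with scores of at least 10 (0.628). The median number of summits was 4 Pitx1 and 0 Tbx5 for the 9 genes, against 1 and 0 for all genes. Density differed widely within the set, with 9.75 Pitx1 summits per 100 kb at Fgfr2, 8.54 at Fgf8, 6.73 at Fgfr1, 5.40 at Fgf10 and 3.37 at Fgf9. It was 2.21 at Fgfr4 and 0 at Fgf4, Fgf17 and Fgfr3, below the 2.35 over all genes. Of all genes, 93.2% were less dense in Pitx1 summits than Fgfr2, 83.8% than Fgf10 and 62.9% than Fgfr4. Tbx5 density was 1.5 per 100 kb at Fgfr2, 1.12 at Fgf9, 1.08 at Fgf10 and 0.961 at Fgfr1. It was 0 at Fgf8, Fgf4, Fgf17, Fgfr3 and Fgfr4. Median scores at the 9 genes lay around the middle of the lists. The median score was 8.28 for their Pitx1 sites, against 6.49 for all assigned sites, and 7.42 for their Tbx5 sites, against 8.29. Of the 59 Pitx1 summits, 24 (40.7%) scored at least 10, against 35.8% of all assigned ones, and 3 (5.08%) were in the top 10% of the list, against 9.48%. The next 10% of the list held 14 of the 59. The upper quartile of their scores was 19.7, against 14.4 for all assigned Pitx1 sites.

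**Figure D5:**
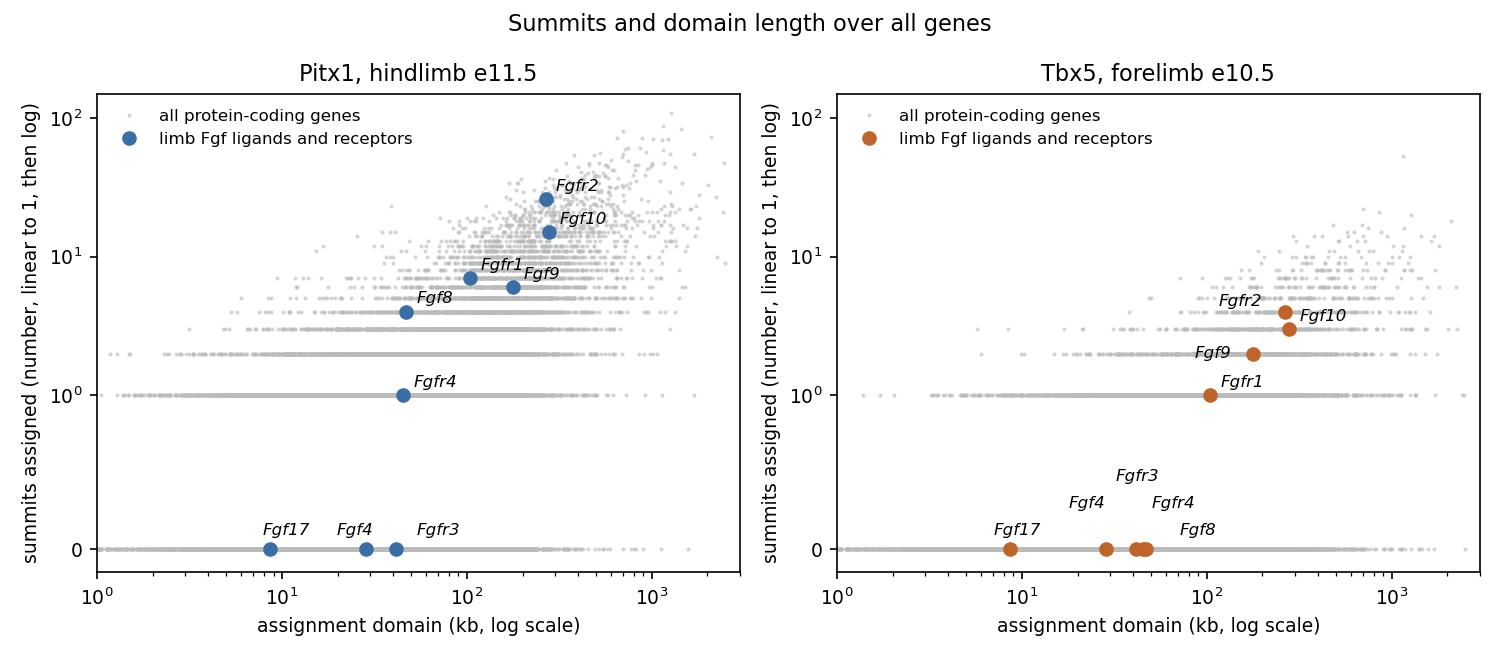
Number of summits assigned to each gene against the length of its assignment domain (kb, log scale), Pitx1 in the left panel and Tbx5 in the right, with the 9 genes in colour over all 21887 protein-coding genes in grey. Fgfr2 and Fgf10, with domains of 267 and 278 kb, hold 26 and 15 Pitx1 summits, while the genes with none have domains of 8.66 to 41.4 kb in the left panel.

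The combination of counts at Fgf10 recurred elsewhere in the genome. Likeness to Fgf10 was measured over the 2 samples as the sum of absolute differences in log2(count + 1) of Pitx1 summits, Tbx5 summits and shared Tbx5 summits. A total of 6 genes had the same 15, 3 and 2 as Fgf10, a difference of 0. Those with the closest domain lengths were Col28a1, a collagen gene, Smg6, a gene of RNA decay, Asxl3, a chromatin gene, Acot11, a thioesterase gene, and Hoxd3, a homeobox gene. Their domains were between 38.5 kb for Hoxd3 and 354 kb for Asxl3.

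Other genes of the pathway were counted by role. For all genes, the shares with Pitx1, Tbx5 and shared summits are 54.5%, 18.7% and 8.8%, and the medians 1 and 0 summits. Of 10 feedback and target genes, which are switched on by the signal and mostly dampen it, 10 had Pitx1 summits, 8 had Tbx5 summits and 6 had shared ones, with medians of 7.5 and 1.5 summits. Spred2 and Il17rd, inhibitors of the pathway, held 18 Pitx1 and 3 Tbx5 summits each, and Dusp6, a phosphatase that switches off its kinase ERK, held 12 and 6. Etv4 and Etv5, transcription factors of the response, had no Tbx5 summit. Of 17 other ligand genes, 10 had Pitx1 and 4 Tbx5 summits, with medians of 1 and 0, close to all genes. Fgf12, whose product stays inside the cell, held the most with 7 and 4. Of 8 genes that relay the signal inside the cell, 5 had Pitx1 summits, also close to the share of all genes, and 0 had a Tbx5 summit, with 8 Pitx1 summits at the adaptor Gab1 and none of either at Frs3, Sos1 and Plcg1. Of 5 co-receptor and binding protein genes, 4 had Pitx1 and 1 had Tbx5 summits, 5 and 2 of them at Kl, with none at Klb.

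Regulators on the ectodermal and mesenchymal sides of the loop also carried sites. All 8 ridge and ectoderm regulators had Pitx1 summits and 5 had Tbx5 summits, 1 of them shared. Dlx6, a homeobox gene of the ridge, held 18 and 2, Trp63, a regulator of the surface ectoderm, 7 and 2, and Sp8, Dlx5 and Wnt3 had no Tbx5 summit. Pitx1 summits lay at all 7 mesenchyme regulators known to act upstream of Fgf10, and Tbx5 summits at 3. The gene Tbx5 held the most of each, 23 and 5. Per 100 kb, the Pitx1 density was 8.19 for the feedback genes, 8.0 for the mesenchyme regulators and 7.30 for the ridge regulators, 2.67 for the relay genes and 1.01 for the other ligands, against 2.35 for all genes. No test compared these lists, whose domains differ in length.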

How the data were processed

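Summit lists of 2 of the 18 samples were used, Pitx1 in hindlimb buds and Tbx5 in forelimb buds, and the others are not analysed here. HOMER, MACS2 2.1.1.20160309, Bowtie2 2.2.6 and Bowtie 1.1.2 are named per the submitters' processing notes, without roles, as is build mm10. The deposited score was read as −log10 q, since the lowest values, 1.31 and 1.42, lie just above 1.30, the −log10 of 0.05. Equal scores are common: 99.1% of Pitx1 and 98.6% of Tbx5 summits share theirs with another. The second Pitx1 list carries further deposited columns whose meaning the sources used here do not give, and none of them was used. Inputs are among the samples, but which one served as control for peak calling, and read depth, filters and pooling, are not stated in the sources used here. Peaks are numbered along the genome and some numbers are absent: between the first and last Pitx1 summit, 15 of 16 were present at Fgf10 and 26 of 29 at Fgfr2.

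Each summit was assigned to the nearest of 21887 protein-coding genes of a RefSeq table of GRCm38.p6 within 100 kb, with distance 0 inside a gene and the shortest gene taken where genes overlap. This placed 81.5% of Pitx1 and 77.1% of Tbx5 summits. Strand and start site came from the RefSeq promoter table. Exons were not used here. Assignment and distances were checked against brute force on simulated positions with Python 3.11.15, pandas 2.3.3 and SciPy 1.17.1. All 9 genes are reported, with each summit of Fgf10 and, for the others, the highest summit of each factor and every shared pair. The genes and lists were chosen with earlier results of these data known. No p-values were computed, because there is 1 sample for each factor.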

Additional observations from a re-analysis of the deposited data

How the results depend on the processing

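Of 53 recomputed values, 40 stayed within 1.5 times the reported count or inside the reported interval of a ratio. Counting every summit within 100 kb, whichever gene is nearest, gave 101 Pitx1 and 16 Tbx5 summits at the 9 genes in place of 59 and 10. Keeping only scores at or above the median of each list gave 32 and 5, with 4 shared, and a score of at least 10 gave 24 and 4, with 2 shared. With the second Pitx1 list there were 22 Pitx1 summits and 4 shared sites. At Fgf10 a score of at least 10 left 7 Pitx1 summits and 1 Tbx5 summit, and the second list left 6 Pitx1 summits. These falls follow from the stricter lists. The density ratio stayed between 2.197 and 3.04 for Pitx1 and between 1.81 and 2.82 for Tbx5, but with a limit of 500 kb, with scores at or above the median and with scores of at least 10, the Tbx5 interval reached below 1 (lower bounds 0.964, 0.774 and 0.628). No paired analysis was possible because each factor has 1 sample. No replicate could be left out for the same reason.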

Other observations

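Farther from the genes, between 100 and 500 kb and still nearest to them, the desert around Fgf10 held 7 more Pitx1 summits and no Tbx5 summit. A pair of them scored higher than any site assigned to Fgf10 within 100 kb: 66.3 at chromosome 13 position 118982326, 190 kb above the gene, and 61.9 at position 118894243, 102 kb above it. Of the 7, only this pair was in the second Pitx1 list, against 6 of the 15 nearer sites. The flank above Fgf9 held 11 more Pitx1 summits, of which the highest scored 41.2 at chromosome 14 position 58489673, and no Tbx5 summit. Its nearer sites reached 20.5. Beyond the far end of Fgfr2 lay 8 more Pitx1 and 3 more Tbx5 summits, 1 of them shared. The Tbx5 summit at chromosome 7 position 130008000, 154.5 kb from Fgfr2, scored 136, rank 220 in its list and higher than the 34.7 of the highest site within 100 kb. A Pitx1 summit with a score of 9.54 lay 2131 bp from it. The domains of the 6 other genes did not grow with the longer reach, because neighbours bound them.

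Some of the strongest sites close to the set fell to neighbours. Micu2, below Fgf9, held Pitx1 summits with scores of 77.6 and 63.0 at chromosome 14 positions 57978658 and 57982322, 92.0 and 88.3 kb from Fgf9. Dmtn, whose end lies 0.154 kb from Fgf17, held one of 20.5 at chromosome 14 position 70635413, 0.79 kb from Fgf17. Of the 5 Pitx1 summits within 100 kb of Fgf4, all fell to Ccnd1, which encodes cyclin D1, with a highest score of 23.8. On either side of Fgf10, Mrps30 held 3 Pitx1 and 1 Tbx5 summits and Nnt 3 and 2, none of them shared. Beside Fgfr2, Wdr11 held 7 and 4 and Ate1 6 and 3. Beside Fgfr1, Gm39147 held 10 and 2, and Letm2 2 and 0. The highest Pitx1 score at Gm39147 was 186, more than 100 kb from Fgfr1, and 54.4 within 100 kb of it. The remaining neighbours were Fbxw4 with 8 and 2 and Npm3 with 1 and 0 (Fgf8), Micu2 with 5 and 0 and 1700129C05Rik with 3 and 1 (Fgf9), Fgf3 with 0 and 1 and Fgf15 with none (Fgf4), and Dmtn with 2 and 0 and Npm2 with 1 and 0 (Fgf17). Tacc3 held 1 and 2 and Letm1 none (Fgfr3), and Zfp346 held 1 and 0 and Nsd1 3 and 0 (Fgfr4).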
